A study of Mus musculus with 6 samples.

Results

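The genes that write, copy and remove cytosine methylation were examined in undifferentiated mouse embryonic stem (ES) cells with and without Hira, which encodes a chaperone for the histone variant H3.3. The genes were Dnmt1, Dnmt3a, Dnmt3b, Dnmt3l, Uhrf1, Tet1, Tet2 and Tdg. A gene was measured where the platform's annotation gave a probe set that symbol and no other. By this rule 7 of the 8 genes were measured, among 19938 genes with such a probe set. They hold 9 of the 35557 probe sets of the table, since Tet1 has 3. Tdg is the exception: each of its 4 probe sets also carries the symbol of a Tdg pseudogene, and no value is given for it.

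Both groups are ES cells grown in medium with fetal calf serum and ESGRO, a preparation of the cytokine LIF. The WT group is the parental line w9.5 (genotype WT), with 3 arrays, and the Hira-null group is the clone Cl34 (genotype Hira-/-), also with 3 arrays. Total RNA was measured on the Affymetrix Mouse Gene 1.0 ST array, and values are given as deposited, on the log2 scale. A log2 fold change is the Hira-null mean less the WT mean. Cl34 is a single clone, so the loss of Hira and any other difference between the lines cannot be told apart. The arrays of a line are labelled as biological replicates. The design text states that cells were taken at several stages of confluence, without saying which array came from which, so the spread behind each p-value may come from cultures, confluence or technique.

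Methylation of cytosine in CpG dinucleotides is placed on unmethylated DNA by the enzymes DNMT3A and DNMT3B, assisted by the catalytically inactive cofactor DNMT3L. After replication DNMT1 copies it to the new strand, guided by UHRF1, which binds the hemimethylated site. TET1 and TET2 oxidise methylcytosine, and TDG excises the further oxidised bases so that repair can restore an unmodified cytosine. In ES cells the naive state is known for low genomic methylation and the move towards the primed epiblast for a gain of it, with Dnmt3b as a marker of that move.

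None of the 7 genes passed the test of a line difference. The values of Dnmt3a, Dnmt3b, Dnmt3l and Tet2 instead varied together from array to array, over a 2.41-fold to 3.71-fold range, and were lowest in WT replicate 1. Tet1 was low in Hira-null replicate 3, and Dnmt1 and Uhrf1 were nearly level. Transcript from Hira itself was at 7.49, 7.86 and 7.83 in the WT line and at 7.40, 7.05 and 6.81 in the clone. It was lower in each Hira-null array than in any WT array, as were 1452 of all 15199 genes. Its log2 fold change of -0.64 (SE 0.19) did not pass the test (limma, adjusted p = 0.352).

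**Figure D1:**
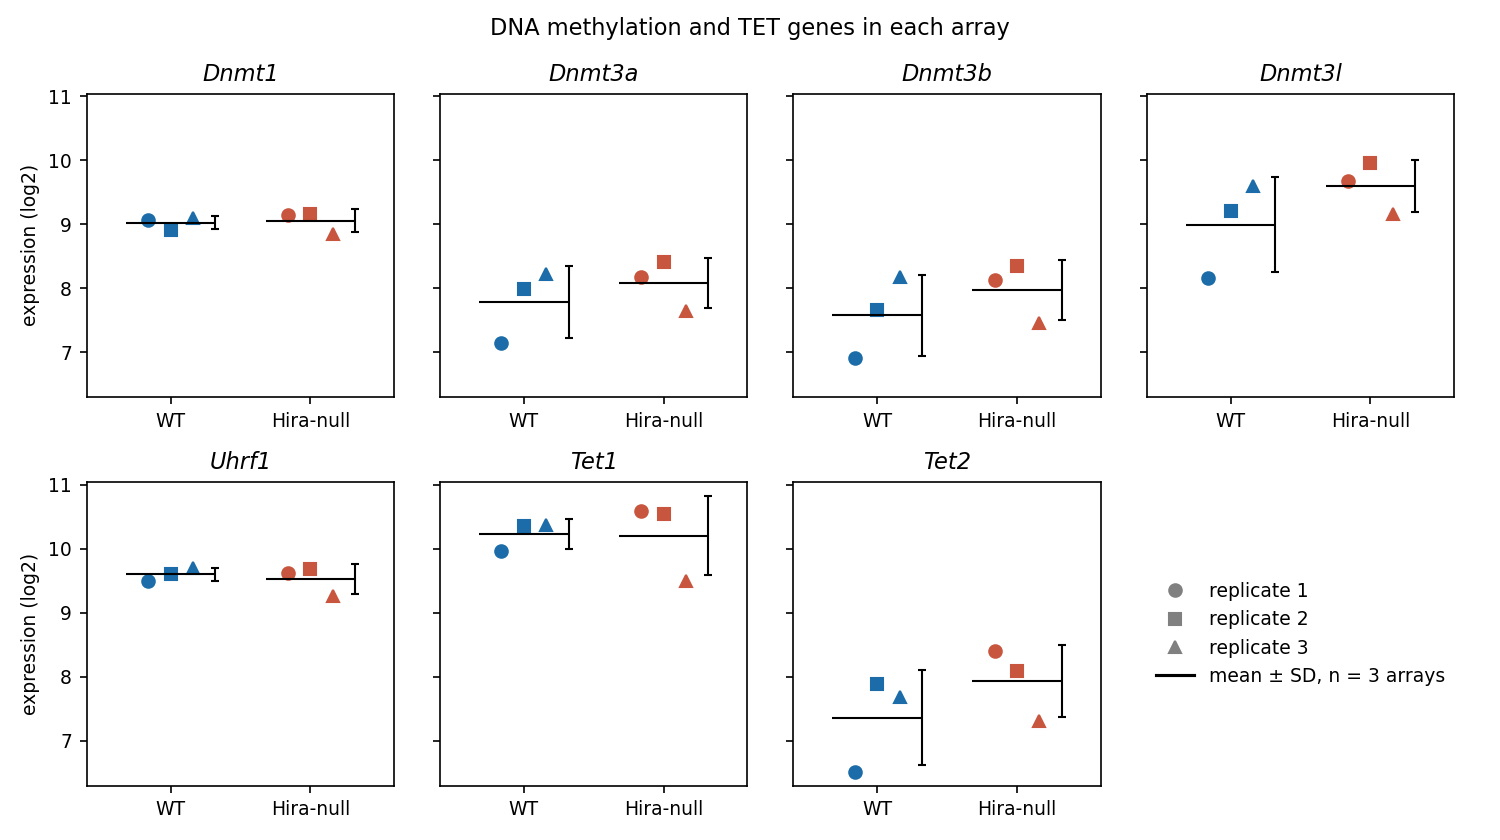
Each panel shows the log2 expression of a gene in the 3 WT arrays (blue) and the 3 Hira-null arrays (red). The marker shape gives the replicate number, and the line and bar give mean ± SD. WT replicate 1 is the lowest point of Dnmt3a, Dnmt3b, Dnmt3l and Tet2, and Hira-null replicate 3 the lowest of Dnmt1, Uhrf1 and Tet1.

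The 7 genes gave 0 calls in either direction at an adjusted p of 0.05 (limma, over all 25142 probe sets kept) and 0 at an unadjusted p under 0.05. Over all probe sets 1 was called, or 0.00398%, and 10.5% of the 15199 genes kept had an unadjusted p under 0.05. The lines overlapped for all 7 genes, whereas they did not overlap for 17.4% of all genes. The median log2 fold change of the 7 genes was 0.30, against -0.0067 over all genes, with 5 of the 7 above 0 and 48.6% of all genes above 0. None of the 7 lies on chromosome 8 or 11, whose genes had medians of -0.27 and -0.24.

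Arrays of the same line differed from each other. The first principal component of all kept probe sets took 41.7% of the variance, with Hira-null replicate 3 alone at 65.6 and the others between -32.0 and 1.95. The second, with 26.8%, separated the lines, with WT arrays at -40.7, -5.12 and -10.2 and Hira-null arrays at 42.7, 11.1 and 2.19 for replicates 1 to 3. Each difference is also given without WT replicate 1 and Hira-null replicate 3. These are also the arrays in which the 7 genes had their lowest values, so leaving them out is not independent of the outcome.

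Dnmt3a and Dnmt3b encode the enzymes of de novo methylation. Dnmt3a read 7.14, 7.98 and 8.22 in WT replicates 1 to 3 and 8.18, 8.41 and 7.64 in Hira-null replicates 1 to 3. Its means were 7.78 ± 0.57 and 8.08 ± 0.40 (SD, n = 3 each). WT replicate 1 was low and the other values overlapped, so the log2 fold change of 0.30 (SE 0.32, 95% interval -0.46 to 1.06) did not pass (limma, adjusted p = 0.845). Dnmt3b read 6.91, 7.65 and 8.17 in the WT arrays, against 8.13, 8.35 and 7.45 in the clone, with means of 7.58 ± 0.63 and 7.98 ± 0.47. For both genes WT replicate 3 lay above Hira-null replicates 1 and 3. The Dnmt3b log2 fold change was 0.40 (SE 0.36, interval -0.45 to 1.25; limma, adjusted p = 0.794).

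Dnmt3l encodes the cofactor that stimulates both enzymes and had the largest line difference among the 7. It read 8.16, 9.21 and 9.60 in the WT arrays, against 9.68, 9.95 and 9.16 in the clone. Line means of 8.99 ± 0.74 and 9.60 ± 0.40 gave a log2 fold change of 0.61 (SE 0.39, interval -0.31 to 1.52), or 1.52-fold higher, which did not pass (limma, adjusted p = 0.673). An exact two-sided permutation test over the arrays gave p = 0.3, where 3 arrays against 3 cannot go below 0.1. Within the WT line alone Dnmt3l spanned 2.71-fold, more than the difference between the line means.

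The stretches before the annotated starts of Dnmt3b and Dnmt3l are shown because both genes varied together over the arrays although their start regions differ in CpG content. They are RefSeq sequences of GRCm38.p6, 5′ to 3′ on the gene's strand, with each CpG in capitals. The Dnmt3b stretch is chr2:153649199-153649410 (plus strand, 212 bases, 16 CpG) and the Dnmt3l stretch chr10:78042037-78042286 (plus strand, 250 bases, 5 CpG).
Dnmt3b: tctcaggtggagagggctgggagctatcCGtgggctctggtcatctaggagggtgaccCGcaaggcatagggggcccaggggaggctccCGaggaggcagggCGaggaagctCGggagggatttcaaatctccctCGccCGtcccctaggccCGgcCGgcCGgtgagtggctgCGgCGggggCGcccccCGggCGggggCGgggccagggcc
Dnmt3l: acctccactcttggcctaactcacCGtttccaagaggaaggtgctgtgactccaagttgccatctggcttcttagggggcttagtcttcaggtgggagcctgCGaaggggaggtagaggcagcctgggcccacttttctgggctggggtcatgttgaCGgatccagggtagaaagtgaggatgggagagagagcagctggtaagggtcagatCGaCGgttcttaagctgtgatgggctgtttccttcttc
In windows of 300 bases, from 250 before to 50 after a start, Dnmt3b held 30 CpG and the 3 annotated starts of Dnmt3l held 6, 4 and 3, against a median of 7 over 32851 such windows. The 3 windows of Dnmt3a held 46, 47 and 18 CpG and that of Tet2 held 57, which is the 99.9th percentile. The genes that varied most between arrays thus include starts both rich and poor in CpG. The arrays do not measure methylation of any of these sites.

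Tet2 encodes a dioxygenase that oxidises methylcytosine. It read 6.51, 7.89 and 7.68 in the WT arrays, against 8.40, 8.09 and 7.31 in the clone. WT replicate 1 was again far below the rest, and Hira-null replicate 3 lay below the other WT arrays. Line means of 7.36 ± 0.74 and 7.93 ± 0.56 gave a log2 fold change of 0.57 (SE 0.42, interval -0.42 to 1.57) that did not pass (limma, adjusted p = 0.730).

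Tet1, which encodes a TET enzyme with a DNA-binding CXXC domain, had a different profile. Its brightest probe set read 9.96, 10.35 and 10.37 in the WT arrays, against 10.59, 10.54 and 9.49 in the clone. Hira-null replicates 1 and 2 were the highest arrays and replicate 3 the lowest, so the line means, 10.23 ± 0.23 and 10.21 ± 0.62, were close. The log2 fold change was -0.02 (SE 0.31, interval -0.75 to 0.71; limma, adjusted p = 0.994), and the other 2 Tet1 probe sets both gave 0.0067. All 3 probe sets placed the arrays alike, with Hira-null replicate 3 at 9.09, 9.46 and 9.49.
The stretch before the Tet1 start is shown for comparison with those of the Dnmt3 genes, at chr10:62887470-62887574 of GRCm38.p6 (minus strand, 105 bases, 7 CpG in capitals).
Tet1: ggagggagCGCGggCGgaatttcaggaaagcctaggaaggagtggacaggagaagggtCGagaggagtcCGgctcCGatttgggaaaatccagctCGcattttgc
The 300-base window of Tet1 held 17 CpG, between those of Dnmt3l and Dnmt3b.

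Dnmt1 and Uhrf1, the genes of maintenance methylation, were the least variable of the 7. Dnmt1 read 9.07, 8.91 and 9.09 in the WT arrays, against 9.15, 9.16 and 8.85 in the clone. Its means were 9.02 ± 0.10 and 9.05 ± 0.18, and the log2 fold change of 0.03 (SE 0.14) had a 95% interval of -0.30 to 0.36. Uhrf1 read 9.5, 9.6 and 9.7 in the WT arrays, against 9.62, 9.69 and 9.26 in the clone. Hira-null replicate 3 was the lowest array for both genes, by 0.06 below WT replicate 2 for Dnmt1 and by 0.24 below WT replicate 1 for Uhrf1. That array was also the lowest for 26% of all genes and the highest for 24.6%, in each case the largest share of any array. For Uhrf1 the means were 9.60 ± 0.10 and 9.52 ± 0.23, with a log2 fold change of -0.08 (SE 0.15, interval -0.44 to 0.29). Neither passed (limma, adjusted p = 0.973 for Dnmt1 and 0.927 for Uhrf1). Their 95% intervals were narrower than those of the Dnmt3 and Tet genes.

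Dnmt1 and Uhrf1 are also the genes whose RefSeq start windows held an E2F-type sequence, the motif of factors that drive S phase genes. The letters searched were TTTCGCGC and TTTGGCGC on both strands, and 0.813% of all 300-base windows hold either. Of 15 windows of the 8 genes, 2 held it: 1 of the 3 windows of Dnmt1, with 2 matches, and 1 of the 2 windows of Uhrf1. The letters themselves contain CpG, and each of these 2 windows held 33 CpG, at percentile 91.9 of all windows. The share among windows as rich in CpG was not computed. The matches are shown within 30 bases of GRCm38.p6, 5′ to 3′ on the gene's strand, with the motif in capitals. The Dnmt1 stretches are chr9:20952824-20952853 and chr9:20952574-20952603 (minus strand), with the motif starting 219 bases before and 33 bases after the start. The Uhrf1 stretch is chr17:56304117-56304146 (plus strand), with the motif starting 185 bases before it.
Dnmt1, before the start: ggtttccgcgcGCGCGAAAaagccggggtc
Dnmt1, after the start: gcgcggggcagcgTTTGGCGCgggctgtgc
Uhrf1, before the start: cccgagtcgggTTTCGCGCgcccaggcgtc
The first Dnmt1 match is on the opposite strand. A match describes these letters only, and binding was not measured.

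**Figure D2:**
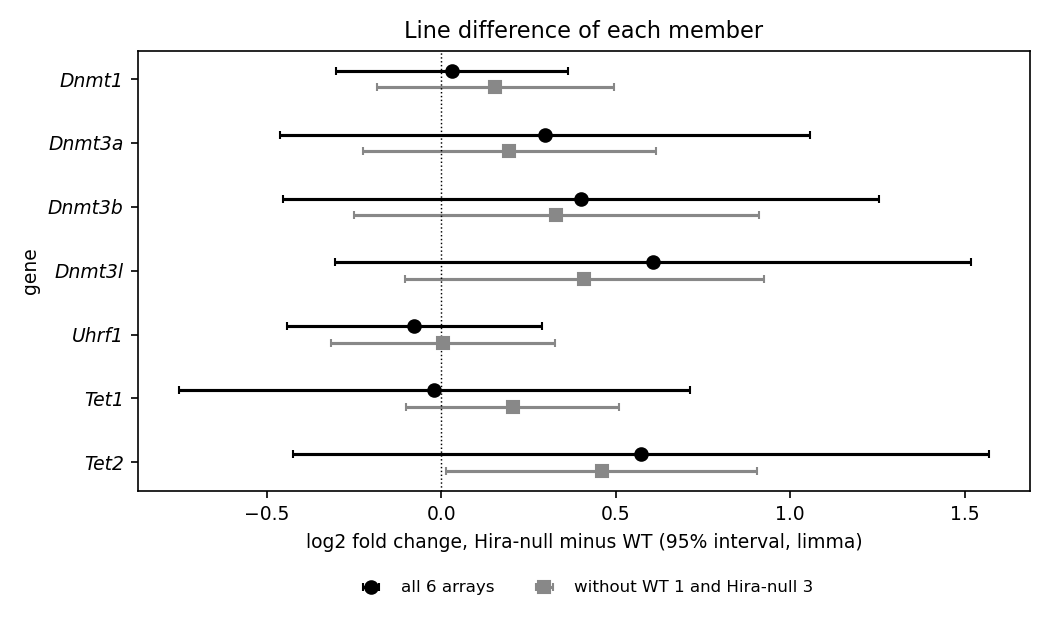
Log2 fold change of each gene (Hira-null minus WT) with its 95% interval from limma, over all 6 arrays (black circles) and over the 4 arrays left when WT replicate 1 and Hira-null replicate 3 are omitted (grey squares). Every interval over 6 arrays includes 0, and the intervals of Dnmt1 and Uhrf1 are the narrowest.

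The size of the Dnmt3 and Tet differences rested on single arrays. Without WT replicate 1 the log2 fold changes were -0.02 for Dnmt3a, 0.07 for Dnmt3b, 0.19 for Dnmt3l and 0.15 for Tet2, and the median of the 7 genes was 0.05. Without Hira-null replicate 3 they were 0.52, 0.66, 0.82 and 0.88 in the same order, with 0.34 for Tet1 and a median of 0.52. With both arrays left out the values were 0.20 for Dnmt3a, 0.33 for Dnmt3b, 0.41 for Dnmt3l, 0.46 for Tet2, 0.20 for Tet1, 0.16 for Dnmt1 and 0.005 for Uhrf1. In those 4 arrays Dnmt1, Dnmt3l, Tet1 and Tet2 were higher in both Hira-null arrays than in both WT arrays, as were 20.2% of all genes. None passed (limma, adjusted p from 0.479 to 0.994). Tet2 alone had an unadjusted limma p under 0.05 (0.0455), as did 4.53% of all genes in that direction. Since the omitted arrays hold the lowest values of these genes, the separation and this p are descriptions and support no line difference.

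The spread between arrays of 1 line set the Dnmt3 and Tet genes apart from the maintenance genes. The pooled within-line SD was 0.49 for Dnmt3a, 0.56 for Dnmt3b, 0.60 for Dnmt3l, 0.66 for Tet2 and 0.47 for Tet1. These lie at percentiles 93.8, 96.0, 96.9, 97.9 and 93.0 of all genes kept, whose median is 0.20. Dnmt1, at 0.14, and Uhrf1, at 0.18, were below that median, at percentiles 26.8 and 41.0. The line accounted for 0.0682% (Tet1) to 27.8% (Dnmt3l) of the sum of squares of a gene over the arrays, where the median of all genes was 16.5%.

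**Figure D3:**
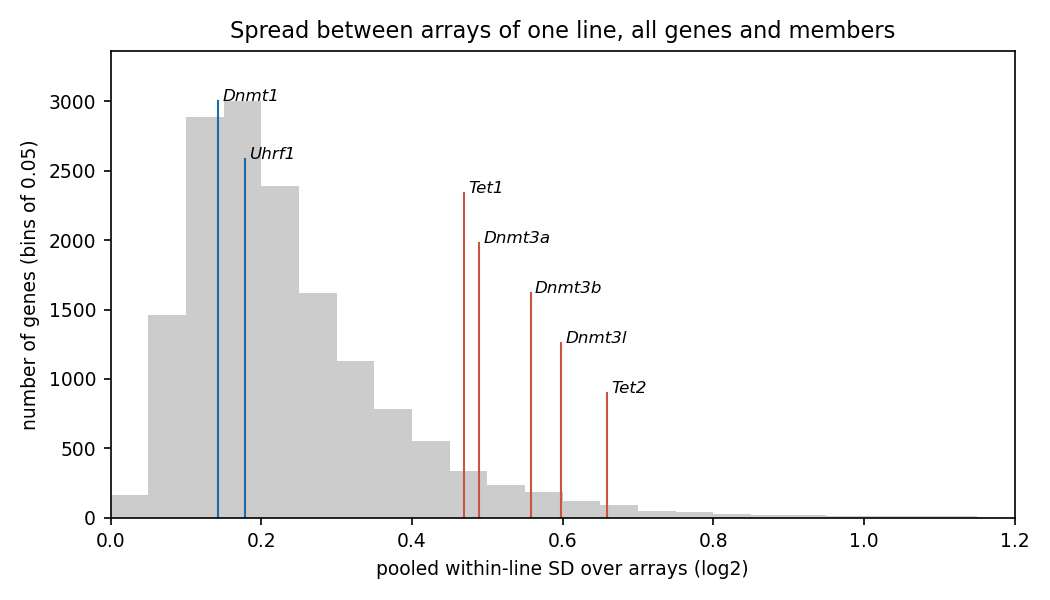
Grey bars count genes by the pooled within-line SD of their log2 values, in bins of 0.05 (17 genes lie beyond the drawn end at 1.2). Vertical lines mark the 7 genes: Dnmt1 and Uhrf1 (blue) fall in the bulk of the genes, and Tet1, Dnmt3a, Dnmt3b, Dnmt3l and Tet2 (red) in the upper tail.

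Dnmt3a, Dnmt3b and Dnmt3l shared a profile over the 6 arrays. Likeness was measured as the root mean square difference between 2 profiles, each centred on its own mean. It was 0.11 between Dnmt3a and Dnmt3b, 0.14 between Dnmt3b and Dnmt3l and 0.19 between Dnmt3a and Dnmt3l, against a median of 0.54 between Dnmt3b and all other genes. Of 15198 other genes, the nearest to Dnmt3b was Dnmt3a and the next was Dnmt3l. The nearest to Dnmt3l was Accsl (0.12), with Dnmt3b next, and the nearest to Dnmt3a were Heatr1 (0.08) and Zfp518b (0.10). The nearest to Tet2 were the zinc finger genes Zfp980 (0.11) and Zfp459 (0.13), with Dnmt3l at rank 43. Tet1 was nearest to Mrpl51 (0.04) and Pgd (0.05). Level genes have many near neighbours: 472 genes lay within 0.1 of Dnmt1, the nearest being Adig and Ice1, and 547 within 0.1 of Uhrf1, the nearest being Rtcb and Cct6a. Dnmt1 and Uhrf1 were 0.10 apart. These distances are descriptions over the same 6 arrays.

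In 3 arrays, WT replicate 3 and Hira-null replicates 1 and 2, each of the 7 genes was above its own mean, as were 48.0%, 44.8% and 51.8% of all genes. In Hira-null replicate 3 each was below it, as were 51.2% of all genes. In WT replicate 1, 6 of the 7 were below, Dnmt1 being the exception, beside 47.9% of all genes. The median deviation of the 7 genes was -0.79 in WT replicate 1 and -0.30 in Hira-null replicate 3, and 0.04 to 0.44 in the other 4 arrays, while the median deviation of all genes stayed between -0.03 and 0.01.

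**Figure D4:**
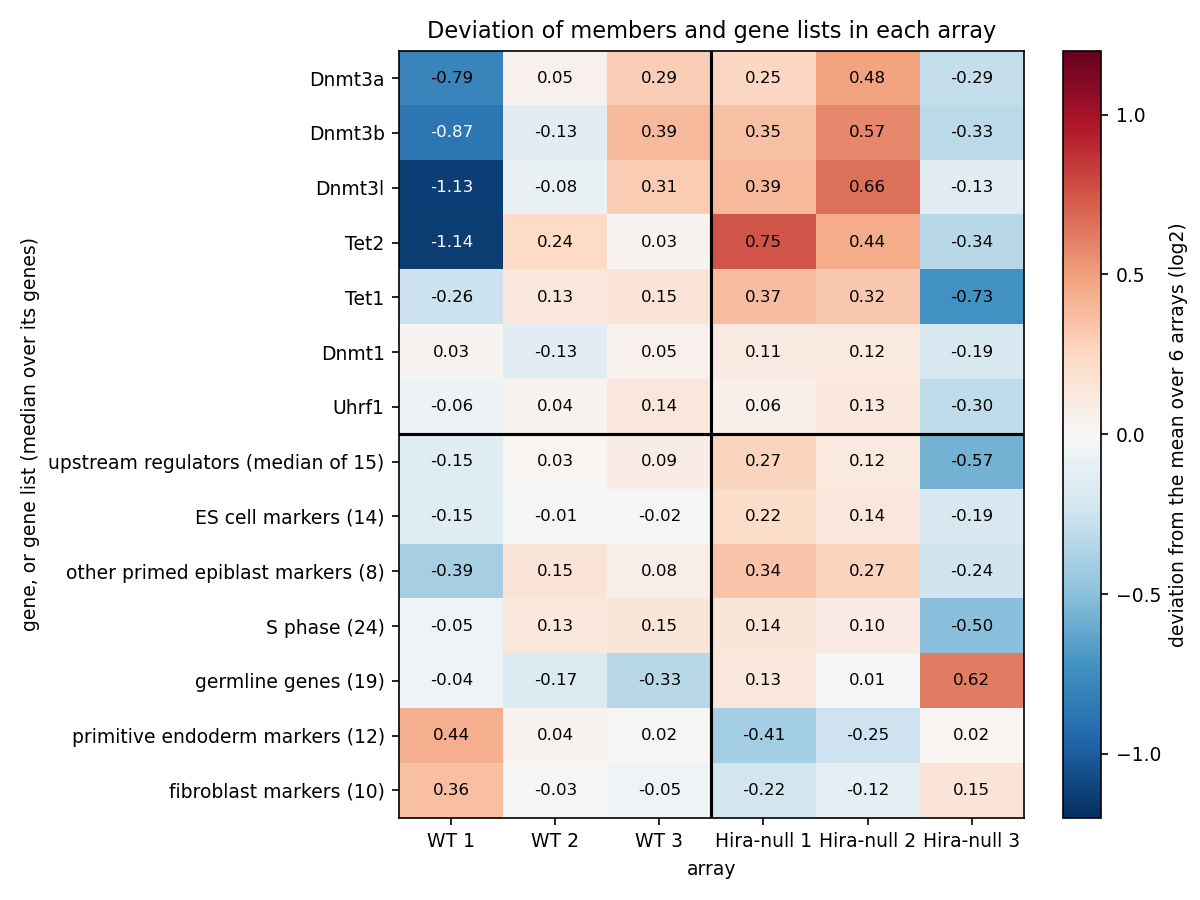
Deviation of each gene from its mean over the 6 arrays (upper rows, log2) and the median deviation of the genes in a list (lower rows, number of genes in brackets), with WT arrays left and Hira-null arrays right of the line. The Dnmt3 genes and Tet2 are lowest in WT replicate 1, where other primed epiblast markers are at -0.39, and Hira-null replicate 3 is lowest for Tet1, S phase genes and upstream regulators.

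Some markers of cell state moved with these arrays. All 14 ES cell markers examined were measured and 0 passed the test. Of these, 8 were above 0 and 6 below, with a median log2 fold change of 0.09. The smallest p belonged to Klf4 (0.41), Tfcp2l1 (0.61) and Lin28a (0.62). Of the 14, only Klf4 and Tfcp2l1 were higher in each Hira-null array than in any WT array, as were 1186 of all 15199 genes. The defining markers Pou5f1, Nanog and Sox2, named in addition, were at 10.91 to 11.58, 10.70 to 11.12 and 9.44 to 10.41 over the 6 arrays. The mean level of the 14 was 9.68 to 9.84 in WT and 9.66 to 10.08 in Hira-null arrays. Of 10 markers of the primed epiblast, 9 were measured, Dnmt3b among them, and 0 passed. Eomes (0.38), Fgf5 (0.20) and Dnmt3b had the smallest p. The other 8 had a median deviation of -0.39 in WT replicate 1 and -0.24 in Hira-null replicate 3, and 0.08 to 0.34 elsewhere. Otx2, a transcription factor of the primed epiblast, read 6.21, 7.99 and 8.23 in the WT arrays, against 8.24, 8.14 and 5.86 in the clone, low in the same pair as the Dnmt3 genes. Foxd3 read 4.97 and 5.29 in that pair and 5.96 to 6.73 in the rest. Otx2 and Foxd3 were singled out after their values were seen, and the rest of the list was mixed. Zic2 and Eomes were also lowest in that pair, though the Eomes values there (4.77 and 4.92) lay below the lowest array median of 4.93. Pou3f1 (6.11 to 6.25) and Sox3 (6.28 to 6.58) varied little over the arrays. Fgf5 (4.24 to 4.73) and Mixl1 (4.40 to 4.87) lay below the lowest array median of 4.93.

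Markers of primitive endoderm had their highest mean level in WT replicate 1 and mostly negative line differences. All 12 were measured and 0 passed the test, with 11 below 0 and a median log2 fold change of -0.30. An unadjusted p under 0.05 in the lower direction was seen for 4 of the 12, against 6.29% of all genes. The endocytic receptor gene Cubn (-1.48), the laminin gene Lama1 (-0.59) and the transcription factor gene Gata6 (-0.55) had the smallest p. They were among 4 of the 12 that were lower in each Hira-null array than in any WT array. Of all 15199 genes, 1452 were. The median deviation of the 12 was 0.44 in WT replicate 1 against 0.02 to 0.04 in the other WT arrays and -0.41 to 0.02 in Hira-null arrays. Their mean level was 6.38 to 6.80 in WT and 5.91 to 6.34 in Hira-null arrays. Of 15 fibroblast markers 10 were measured and Lum, Dcn, Postn, S100a4 and Prrx1 were below the filter on low values. None of the 10 passed, the median log2 fold change was -0.30 (6 below 0), and Thy1 (0.76), Twist2 (-0.40) and Vim (-0.61) had the smallest p. The median deviation of the 10 was 0.36 in WT replicate 1 and 0.15 in Hira-null replicate 3, and -0.22 to -0.03 elsewhere, with mean levels of 6.45 to 6.89 in WT and 6.17 to 6.65 in Hira-null arrays. The part of other cell types in the low Dnmt3 and Tet2 values was not tested. In such bulk RNA fewer cells of a type and less RNA per cell cannot be told apart.

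S phase genes were examined beside Dnmt1 and Uhrf1, whose products act at the replication fork. Of 25 listed, 24 were measured and 0 passed the test. Their median deviation was -0.50 in Hira-null replicate 3 and -0.05 to 0.15 in the other 5 arrays. Hira-null replicate 3 was also the lowest array of Dnmt1 and Uhrf1, as it was of 26% of all genes, and it was the highest array of 24.6%. The median log2 fold change of the 24 was -0.18, and -0.14 for the 19 outside chromosomes 8 and 11. The smallest p belonged to the replication licensing gene Cdt1 (-0.59), the topoisomerase gene Top2a (-0.48) and the thymidine kinase gene Tk1 (-0.55), all 3 on those chromosomes.

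Proteins that work with DNMT1 and UHRF1 were measured by 11 of 11 genes, with 0 passing and a median of -0.10. The gene with the smallest p was Dppa3, whose product binds UHRF1 and limits methylation in oocytes and embryos. It read 6.83, 6.67 and 6.60 in the WT arrays, against 4.83, 4.93 and 4.53 in the clone. These values did not overlap, yet this probe set fell short of the threshold (-1.94, limma, adjusted p = 0.0526), and another Dppa3 probe set was the 1 called over the whole table. The difference did not follow the array pattern of the Dnmt3 genes, since WT replicate 1 was the highest array. The histone deacetylase gene Hdac2 followed at 0.26 and Cdca7, a partner of the remodeller HELLS, at -0.22.

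Genes for oxidation and base excision were represented by 23 of 25, with 0 passing, 12 above 0 and a median of 0.07. Gadd45a, a stress-induced gene linked to DNA repair and demethylation, read 7.85, 7.86 and 7.54 in the WT arrays, against 8.88, 8.58 and 9.18 in the clone, without overlap. Its log2 fold change of 1.13 (SE 0.19) did not pass (limma, adjusted p = 0.220). The DNA ligase gene Lig3, on chromosome 11, was at -0.67 and the APOBEC family gene Apobec2 at 0.73.

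Readers of methylated DNA were represented by 9 of 10 genes, with 0 passing and a median of 0.01. The methyl-CpG binding gene Mbd2 had the smallest p (0.77; limma, adjusted p = 0.360), followed by Zbtb38 (-0.40) and Mbd1 (0.20). All 6 genes of CXXC proteins at unmethylated CpG were measured and lay close to 0: Fbxl19 at 0.16, Kmt2b at 0.13, Kdm2a at 0.11, Kmt2a at 0.10, and Kdm2b and Cxxc1 both at -0.02. Genes of methyl donor supply were represented by 12 of 16, with 0 passing, 9 below 0 and a median of -0.16. The methionine salvage gene Mtap (-0.57) had the smallest p, and the next were Shmt1 (-0.69) and Mat2b (-0.52), both on chromosome 11. Of the 12, 4 were lower in each Hira-null array than in any WT array, Mtap and Shmt1 among them. Of all 15199 genes, 1452 were.

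Regulators that act upstream of the Dnmt3 and Tet genes in ES cells, 15 of 15 measured, had 0 passing and a median of -0.05. Of these, 8 are also among the ES cell markers and 2 among those of the primed epiblast. Klf4 (0.41), Tfcp2l1 (0.61) and Lin28a (0.62) had the smallest p, and the median deviation of the list was -0.57 in Hira-null replicate 3. Germline genes whose promoters are held silent by methylation in somatic cells were represented by 19 of 22, with 0 passing, 14 above 0 and a median of 0.51. The piRNA pathway gene Mael (1.5), Rnf17 (0.89) and the meiosis gene Tex11 (0.51) had the smallest p. They were among 6 of the 19 that were higher in each Hira-null array than in any WT array. Of all 15199 genes, 1186 were. An unadjusted p under 0.05 was seen for 6 of the 19 in the higher direction, against 4.17% of all genes. The median deviation of this list was -0.04, -0.17 and -0.33 in WT replicates 1 to 3 and 0.13, 0.01 and 0.62 in Hira-null replicates 1 to 3. Within each line it was highest in the array where the 7 methylation and TET genes had their lowest median deviation. Those arrays were WT replicate 1 (-0.79) and Hira-null replicate 3 (-0.30). This was not particular to germline genes. The same arrays were highest within their lines for fibroblast markers (0.36 and 0.15) and primitive endoderm markers (0.44 and 0.02). They were also highest for the oxidation and excision genes (0.03 and 0.04). A relation between the germline list and these genes was not tested.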

How the data were processed

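The table deposited by the authors holds log2 expression values of 6 arrays. The submitters' processing notes name GCRMA; its version, the build and the annotation are not given in the sources used. Array medians of 4.93 to 5.02 show values already levelled between arrays, which hides any shift common to most genes. Probe sets were kept where at least 3 of 6 arrays exceeded 3.78, the 30th percentile (25142 kept); all 9 member probe sets passed. Symbols were updated by Entrez identifier with a RefSeq table (GRCm38.p6), and each gene was represented by its brightest probe set. Hira-null minus WT was fitted over 6 arrays with limma 3.58.1 (R 4.3.3; lmFit, eBayes, two-sided, Benjamini-Hochberg over the probe sets kept) and tested on simulated data. The number of arrays limits precision (median SE 0.17). Members and lists were chosen with earlier results of these data known. Genes named from a list are the 3 with the smallest p, or all in a list of 8 or fewer, with others named as exceptions; near neighbours are the closest 2. Alternatives covered filters, scaling, eBayes settings, array weights, a replicate block and left-out arrays.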

Additional observations from a re-analysis of the deposited data

How the results depend on the processing

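Over 16 alternatives the count of called genes among the 7 stayed at 0, and the fold changes of Dnmt3b, Dnmt3l and Tet2 stayed above 0 (0.07 to 0.70, 0.19 to 0.91 and 0.15 to 0.88). Small differences changed sign. Dnmt1 was -0.023 with centring on genes outside chromosomes 8 and 11, and -0.027 to 0.13 when each array was left out in turn. In the same way Dnmt3a ran from -0.023 to 0.52, Uhrf1 from -0.16 to 0.055 and Tet1 from -0.21 to 0.34. Tet1 was 0.13 with array weights and 0.0067 at each other probe set; with WT replicate 1 and Hira-null replicate 3 both omitted it was 0.20, and Uhrf1 0.005. The cause was not tested. The median of the 7 genes was 0.05 to 0.52 with an array left out. Probe sets called over the whole table numbered 2 with the stricter filter, 2 with centring outside chromosomes 8 and 11, 5 with array weights, 0 with the replicate block, 0 without both arrays, and 0 to 41 with an array left out (41 without Hira-null replicate 2). Dppa3 entered the calls of the maintenance partners under 4 alternatives. Same-numbered arrays of the lines did not deviate together (correlations of -0.342, 0.173 and -0.0989), so the replicate numbers were not taken as pairs. Raw scanner signals were not analysed here, so signal over background is unknown.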
